A study of Mus musculus with 20 samples.

Results

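The polyamine metabolism genes examined here are 10 genes of polyamine synthesis, breakdown and control, chosen by name: Odc1, Amd1, Srm, Sms, Sat1, Azin1, Oaz1, Oaz2, Smox and Paox. Of these, 9 were found by symbol among the 23284 genes of the table, and Oaz2 was not analysed here. The filter on low values left 7 of the 9, among 13456 genes tested. The samples were tissue recombinants, grafts of mouse epithelium with rat mesenchyme of the urogenital sinus, the embryonic tissue that induces prostate, measured by poly-A RNA-seq in 20 libraries, 4 in each of 5 groups. SVE is seminal vesicle epithelium with wild-type NKX3.1, and PE is prostate epithelium with wild-type NKX3.1. The group labelled mNKX3.1 is seminal vesicle epithelium carrying that construct, UTY_sh carries a hairpin, and mNKX3.1+UTY_sh carries the pair. The labels do not say what the m stands for, nor which of the wild-type and point-mutant forms of NKX3.1 named in the treatment protocol it is, so groups are named as labelled. All groups share the Sprague Dawley rat mesenchyme, epithelial donors aged 2 months, doxycycline in the drinking water for 3 months to switch on an inducible vector, and collection 3 months after implantation. The labels give the mouse background both as C57Bl/6J and as a hybrid of 129/SvImJ and C57Bl/6J. Nothing in them ties a library to its own animal, so the spread behind each p-value is that between libraries and may be technical.

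Polyamines (putrescine, spermidine and spermine) are small, positively charged metabolites that bind nucleic acids and are needed for growth. The prostate and the seminal vesicle release large amounts of them into semen, and polyamine synthesis in the male accessory glands depends on androgen. Ornithine decarboxylase (ODC1) makes putrescine from ornithine, S-adenosylmethionine decarboxylase (AMD1) supplies aminopropyl groups, and the synthases SRM and SMS use these to make spermidine and then spermine. SAT1 acetylates spermidine and spermine for export or for oxidation by PAOX, while SMOX oxidises spermine straight back to spermidine. Antizymes (OAZ1, OAZ2) bind ODC1 and send it to the proteasome, and the antizyme inhibitor AZIN1, a relative of ODC1 without its activity, frees it.

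Values are on the log2 scale of the authors' table, so a difference of 1 is a doubling, and they are not divided by gene length. The libraries held about 14920000 to 29810000 reads. All 10 prostate secretory genes listed were higher and all 10 seminal vesicle secretory genes lower in PE than in SVE. The lists were chosen with earlier results of these data known, so this match is no independent check of the labels. No fall of Uty, the gene the hairpin is named for, passed the test in UTY_sh against SVE: it averaged 9.29 ± 0.21 in SVE (SD, n = 4) and 9.22 ± 0.23 in UTY_sh, a difference of -0.07 (SE 0.11). Ehmt2 (G9a) averaged 11.33 ± 0.06 in SVE and 11.30 ± 0.12 in PE. The prostate secretory gene Pbsn varied widely within the seminal vesicle groups, with SVE libraries at 6.43 to 15.71, UTY_sh libraries at 9.69 to 14.81 and those with the pair at 5.29 to 15.06. SVE replicate 1, UTY_sh replicate 3 and mNKX3.1+UTY_sh replicate 4 were the highest of their groups. Rat mesenchyme reads that match a mouse gene cannot be told apart from mouse reads, nor can fewer cells of a type from less RNA per cell.

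Amd1 and Oaz1, which are used by nearly all cells, were listed at the floor of the table in every library. Amd1 lay between 1.24 and 3.20 over the 20 libraries, with a median of 2.33. Oaz1 lay between 1.69 and 3.04, with a median of 2.37. For comparison, 5801 genes had a mean below 2.5, and the median of those means was 2.27. Amd2, a close copy of Amd1, was at the floor too, with a median of 2.35. No level, fold change or test is given for Amd1 and Oaz1 for this reason.

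Both genes share much of their sequence with other genes. Of the 50-base stretches in the longest coding transcript (GENCODE M21), 87.6% in Amd1 also occurred in transcripts of another gene, 86.1% in Amd2 alone. The share was 52.2% in Oaz1, all of it with the pseudogene Oaz1-ps. It was 42.2% in Odc1, 28.9% in Paox, 28.7% in Sms, 7.28% in Sat1, 6.43% in Azin1, 2.40% in Srm and 0% in Smox. Gapdh, an abundant glycolytic gene added after its values were seen, had a share of 82.5% and a median of only 4.65. How reads with several possible positions were counted is not given in the sources used here, and its part in these values was not tested. Odc1, Sms and Paox share part of their sequence too, so their levels, differences and ratios may be affected, which was not tested. Smox, Srm, Azin1 and Sat1 rest on mostly unique sequence.

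**Figure D1:**
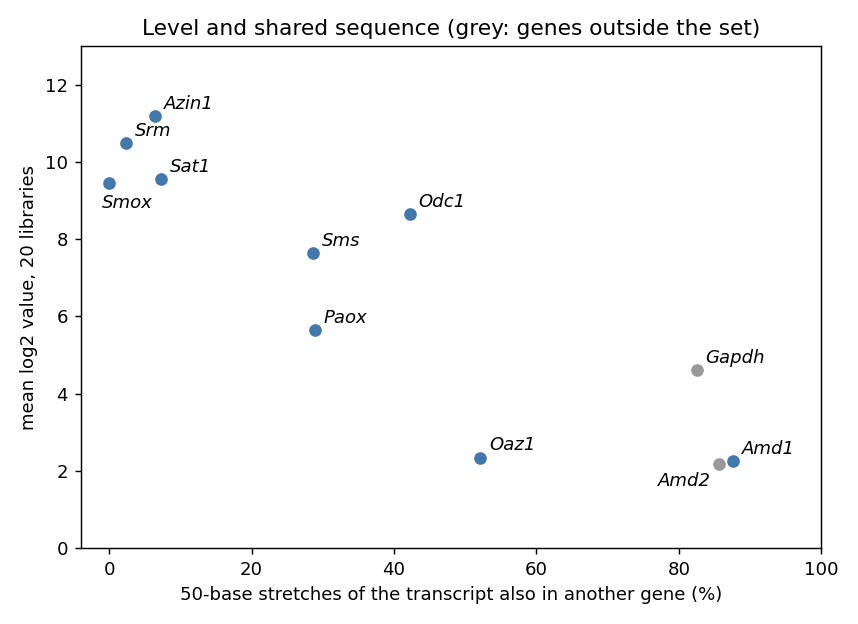
The share of 50-base stretches found in another gene's transcripts (x axis, percent) is plotted against the mean log2 value over 20 libraries (y axis), 1 point per gene, with Amd2 and Gapdh in grey. Amd1, Amd2 and Oaz1 sit at the floor with shares of 87.6%, 85.7% and 52.2%, and Smox, Srm, Sat1 and Azin1 lie above 9 with shares from 0% to 7.28%.

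The row named Oaz2-ps was not at the floor. RefSeq gives this name both to a pseudogene and as an older symbol of the antizyme gene Oaz2, so the row is not counted among the members. It was nearly flat, between 8.95 and 9.28 over the 20 libraries, and group means spanned 0.096. It passed in no comparison.

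The first comparison set prostate against seminal vesicle epithelium, both grown with the rat mesenchyme. The largest difference was in breakdown: Smox was 3.38-fold lower in PE, while Sat1 was 2.18-fold higher. In synthesis, Sms was 2.59-fold higher and Odc1 1.23-fold lower, and Azin1 was 1.25-fold higher. Srm and Paox did not pass the test. The test was limma's moderated test on all 13456 genes with Benjamini-Hochberg adjustment, and an adjusted p below 0.05 was called.

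Smox encodes spermine oxidase. In SVE it read 10.22, 10.08, 10.30 and 10.20, and in PE 8.54, 8.59, 8.06 and 8.59. In mNKX3.1 it read 8.54, 8.23, 8.61 and 8.38, in UTY_sh 9.98, 9.90, 10.10 and 10.30, and in mNKX3.1+UTY_sh 10.30, 10.10, 9.94 and 10.14. All 8 libraries of PE and mNKX3.1 were thus below all 12 of the other groups. From SVE to PE it fell by 1.76 (SE 0.12, adjusted p = 5.50e-10 by limma), and 443 of the 13456 genes fell further. The lowest library was PE replicate 3.

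Sat1 encodes spermidine/spermine N1-acetyltransferase, the enzyme that commits polyamines to export or breakdown. In SVE it read 9.58, 8.94, 9.04 and 8.94, and in PE 10.24, 10.31, 10.20 and 10.28. In mNKX3.1 it read 10.23, 10.30, 10.25 and 10.23, in UTY_sh 9.03, 9.14, 9.33 and 8.98, and in mNKX3.1+UTY_sh 8.96, 8.88, 8.92 and 9.41. PE and mNKX3.1 were above every other library and had small SDs, of 0.05 and 0.03. Sat1 rose by 1.13 from SVE to PE (SE 0.13, adjusted p = 4.39e-07 by limma), and 974 genes rose further. It was highest in replicate 1 of SVE, 1 of the 3 libraries rich in Pbsn.

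Paox, the oxidase that acts on acetylated polyamines, was the lowest of the 7 genes tested. It read 5.38 to 5.72 in SVE and 5.49 to 6.11 in PE, so the groups overlapped. The difference was 0.24 (95% interval from -0.07 to 0.55, adjusted p = 0.166 by limma).

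Sms encodes spermine synthase. In SVE it read 7.70, 6.69, 7.23 and 6.74, and in PE 8.42, 8.42, 8.47 and 8.56. In mNKX3.1 it read 8.57, 8.42, 8.43 and 8.38, in UTY_sh 7.04, 7.11, 7.35 and 6.97, and in mNKX3.1+UTY_sh 6.77, 6.89, 7.15 and 7.45. Groups other than PE and mNKX3.1 were lower without overlap, and more spread, with an SD of 0.47 in SVE against 0.06 in PE. Sms rose by 1.37 from SVE to PE (SE 0.18, adjusted p = 2.38e-06 by limma), and 740 genes rose further.

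Odc1, the gene of the enzyme that starts the pathway, moved little. In SVE it read 8.76, 8.70, 8.79 and 8.75, and in PE 8.42, 8.33, 8.65 and 8.39. In mNKX3.1 it read 8.51, 8.52, 8.52 and 8.36, in UTY_sh 9.01, 8.86, 8.84 and 8.78, and in mNKX3.1+UTY_sh 8.62, 8.73, 8.69 and 8.72. Every PE library was below every SVE library, though PE replicate 3 came within 0.1 of the lowest. The fall from SVE to PE was -0.30 (SE 0.07, adjusted p = 7.52e-04 by limma), and 55.8% of all genes differed by more.

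Srm, the spermidine synthase gene, overlapped between neighbouring groups in the order of its means, and between PE and SVE. Its group means lay between 10.36 in mNKX3.1+UTY_sh and 10.59 in mNKX3.1. The gene of the step before Sms thus showed a PE minus SVE difference of 0.06 (95% interval from -0.12 to 0.24).

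Azin1 encodes the antizyme inhibitor. In SVE it read 11.00, 11.14, 10.92 and 11.15, and in PE 11.36, 11.39, 11.33 and 11.42. In mNKX3.1 it read 11.38, 11.34, 11.35 and 11.36, in UTY_sh 11.14, 11.10, 11.15 and 10.90, and in mNKX3.1+UTY_sh 10.90, 11.08, 11.04 and 11.03. All libraries of PE and mNKX3.1 were again above all others. Azin1 rose by 0.32 from SVE to PE (SE 0.06, adjusted p = 1.52e-04 by limma), a small change in the gene with the highest values of the set.

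**Figure D2:**
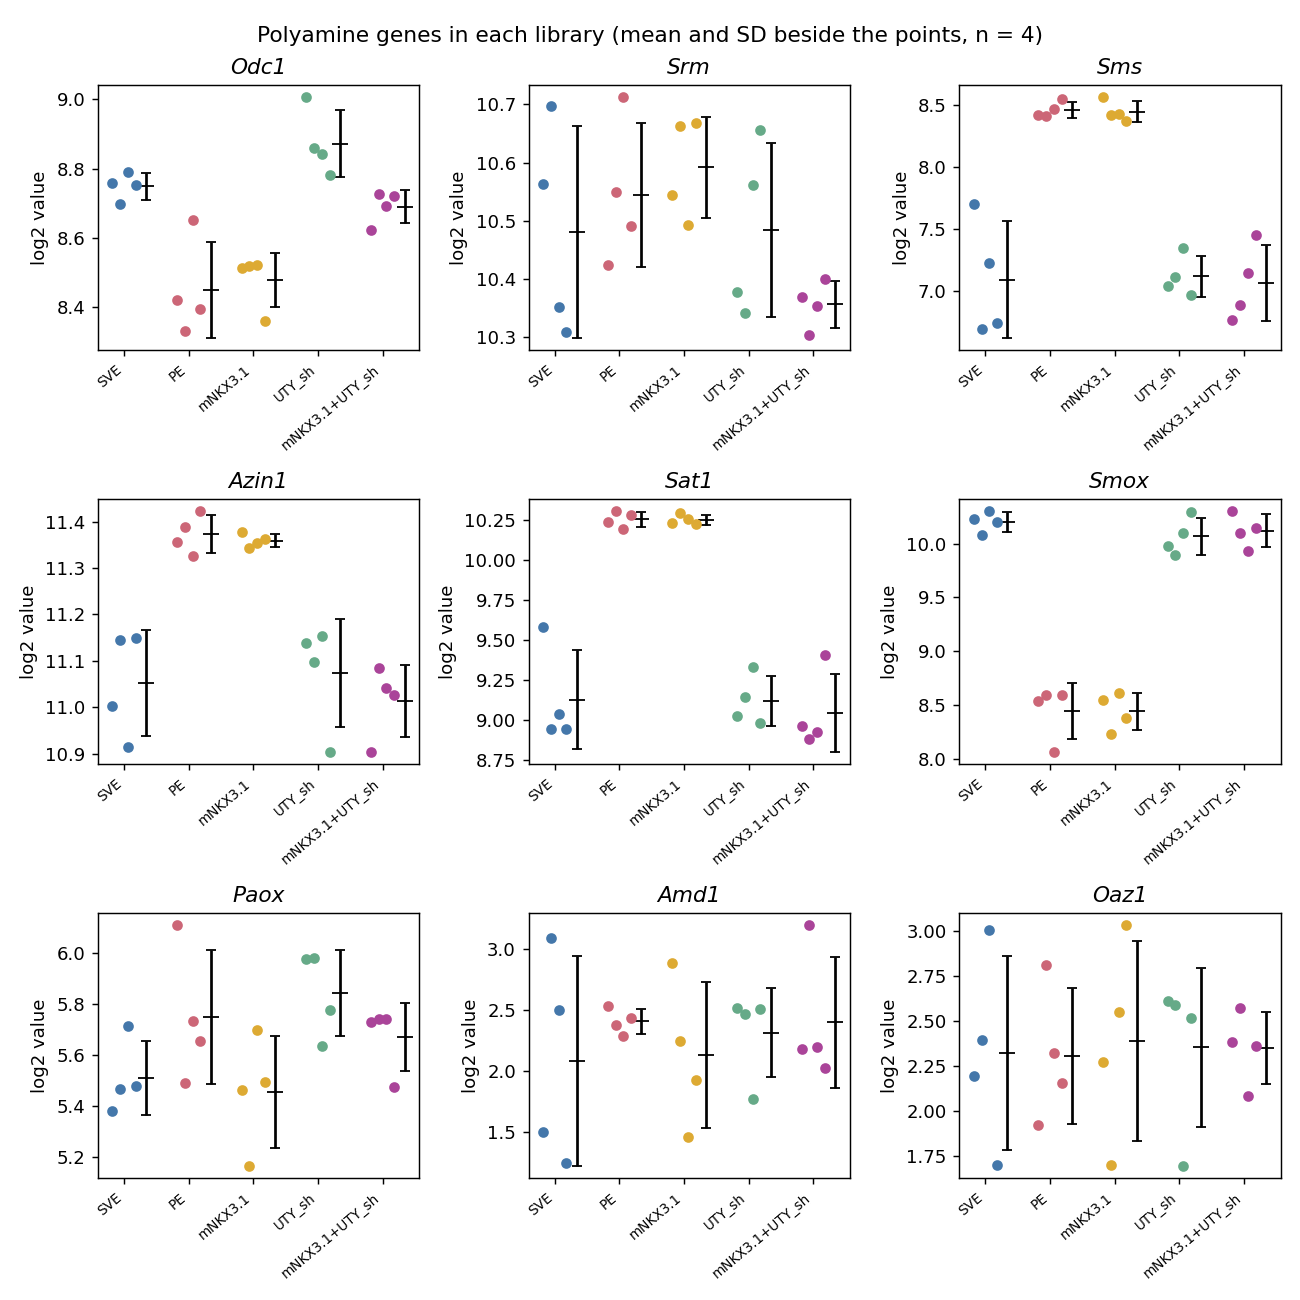
Log2 values (y axis) of 9 polyamine genes in each library, by group (x axis), with the group mean and SD (n = 4) beside the points, and a separate y range per gene. PE and mNKX3.1 lie together and apart from the other groups for Sms, Azin1, Sat1 and Smox. For Odc1 they have the lowest means, but PE overlaps mNKX3.1+UTY_sh. Amd1 and Oaz1 stay near 2.27, the floor.

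Of the 7 genes tested, 3 were higher (Sms, Sat1, Azin1) and 2 lower (Smox, Odc1) in PE. Over all genes 62.1% were called in this comparison, 31.8% higher and 30.4% lower, so the count of 5 in 7 is near the background. The median difference of the 7 was 0.24, against 0.022 over all genes. The sizes set Smox, Sms and Sat1 apart from Odc1 and Azin1: 7.19%, 10.4% and 13.9% of all genes differed by more than these 3, against 55.8% and 53.7%.

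Markers of other cell types moved alongside. Each of the 10 smooth muscle genes fell in PE, where their summed level was 15.78 to 16.24 against 16.77 to 17.47 in SVE. Summed levels include list genes that failed the filter: 6 adipocyte, 9 leukocyte and 10 proliferation genes were summed. All 6 luminal epithelium genes were higher, with summed levels of 15.72 to 16.06 against 14.61 to 15.09, and a median difference of 0.70. The 5 adipocyte genes tested were higher as well (9.78 to 11.04 against 6.81 to 9.97). Leukocyte genes were uneven, with 2 of 6 tested higher, none lower and a summed level of 10.40 to 13.91 in PE against 10.75 to 11.14 in SVE. Of 8 fibroblast and matrix genes 4 were lower, of 6 endothelium genes 1 was higher and 2 lower, and of 5 basal epithelium genes 2 were higher and 3 lower. Of 8 proliferation genes tested, 1 was higher and 2 lower, and their summed levels overlapped (9.94 to 10.35 against 9.81 to 10.36). No marker averaged below 2.5 in any group except Sbpl of the prostate secretory list in SVE. Their part in the polyamine results was not tested.

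The 250 bases before the start sites of the 3 genes that differed most are shown, because Smox moved one way and Sat1 and Sms the other. They are RefSeq sequences on GRCm38.p6, which held 8 of the 10 genes, read 5′ to 3′ on the gene's strand, while the authors' values came from mm9. Capitals mark matches on either strand to 6 short motifs. The E-box, which Myc binds, was searched as CACGTG, and the core of the androgen receptor's site as AGAACA. The general promoter motifs were the GC box, GGGCGG, whose matches can overlap each other, and the TATA box, TATAAA. The core that NKX3.1 binds was searched as TAAGTA and the forkhead core as TGTTTA. The stretches are chr2:131491612-131491861 (+) for Smox, chrX:155216450-155216699 (-) for Sat1 and chrX:157492288-157492537 (-) for Sms.
Smox: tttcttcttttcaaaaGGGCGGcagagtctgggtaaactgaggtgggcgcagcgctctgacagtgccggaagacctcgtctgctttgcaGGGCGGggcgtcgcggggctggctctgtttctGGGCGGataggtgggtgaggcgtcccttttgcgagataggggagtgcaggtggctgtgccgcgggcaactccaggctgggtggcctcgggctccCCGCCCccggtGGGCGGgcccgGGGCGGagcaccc
Sat1: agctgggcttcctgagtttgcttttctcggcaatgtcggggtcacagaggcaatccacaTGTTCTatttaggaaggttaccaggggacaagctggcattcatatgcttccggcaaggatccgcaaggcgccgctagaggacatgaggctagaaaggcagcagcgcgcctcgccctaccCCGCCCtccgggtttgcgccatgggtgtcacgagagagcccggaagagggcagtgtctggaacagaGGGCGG
Sms: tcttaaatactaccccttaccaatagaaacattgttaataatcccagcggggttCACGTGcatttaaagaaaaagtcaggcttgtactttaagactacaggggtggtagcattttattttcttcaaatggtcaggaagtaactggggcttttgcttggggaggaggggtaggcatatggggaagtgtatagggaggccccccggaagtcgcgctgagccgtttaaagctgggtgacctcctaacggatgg
The Smox stretch held 6 GC boxes and none of the other motifs. The Sat1 stretch held 2 GC boxes and 1 match to AGAACA, which begins 191 bases before the start, and the Sms stretch held 1 E-box, 196 bases before it. A second RefSeq start of Sms had 4 GC boxes and no E-box. Among all 32851 promoter records, 32.7% held the GC box, 16.1% the androgen receptor core, 6.02% the E-box, 12.4% the TATA box, 6.62% the NKX3.1 core and 12.0% the forkhead core. These matches describe the letters only.

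Ratios within a library do not depend on the scaling between libraries. Only their differences between groups are read, since their size also depends on transcript length. Log2 Smox minus log2 Sms, the gene that removes spermine over the gene that makes it, was 2.52, 3.38, 3.07 and 3.46 in SVE, and 0.12, 0.17, -0.41 and 0.035 in PE. In mNKX3.1 it was -0.024, -0.19, 0.18 and 0.0014. It ranged from 2.75 to 3.32 in UTY_sh and from 2.69 to 3.53 in mNKX3.1+UTY_sh. The ratio was thus 8.76-fold lower in PE than in SVE and 8.68-fold lower in mNKX3.1, with no overlap.

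In the next ratio Smox is the gene subtracted, so its fall alone moves this ratio the other way. These are ratios of RNA, not of enzyme activity. Log2 Sat1 minus log2 Smox was -1.07 ± 0.30 in SVE (SD, n = 4) and -0.95 ± 0.26 in UTY_sh. With construct and hairpin it was -1.08 ± 0.26, against 1.81 ± 0.22 in PE and 1.81 ± 0.19 in mNKX3.1. It was 7.37-fold higher in PE than in SVE. Sms rose against Srm by 1.31 from SVE to PE, a 2.48-fold difference. Odc1 against Azin1 fell by 0.62, a 1.54-fold difference. In both, the libraries of PE and SVE did not overlap. Paox against Sat1 fell by 0.89, and there the libraries of PE and SVE overlapped.

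**Figure D3:**
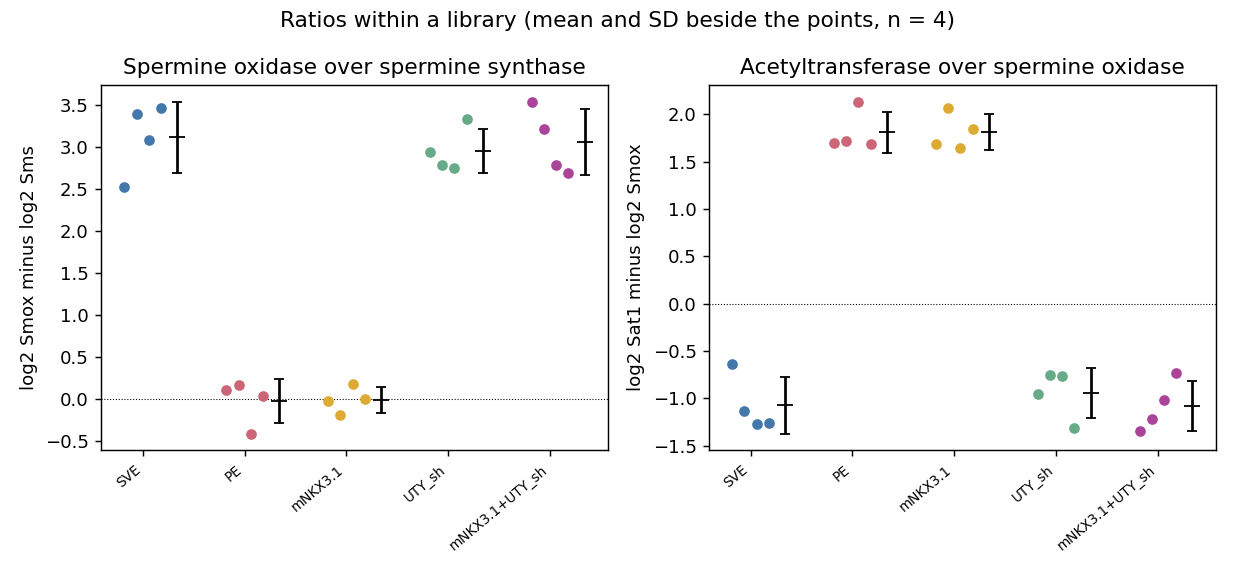
Log2 ratios within each library (y axes), Smox over Sms on the left and Sat1 over Smox on the right, by group (x axis), with mean and SD (n = 4) beside the points. The left ratio is near 0 in PE and mNKX3.1 and between 2.52 and 3.53 elsewhere, and the right ratio is above 1.6 in PE and mNKX3.1 and below -0.6 elsewhere.

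The next comparison asked what the construct labelled mNKX3.1 changes in seminal vesicle epithelium. The values of these genes there lay close to those of PE. Smox was 3.38-fold lower (a log2 difference of -1.76, SE 0.12), Sms 2.56-fold higher (1.36, SE 0.18) and Sat1 2.18-fold higher (1.12, SE 0.13). Azin1 differed by 0.31 (SE 0.06) and Odc1 by -0.27 (SE 0.07). By limma the same 5 of 7 genes were called, 3 higher and 2 lower, against 62.3% of all genes, 31.7% higher and 30.6% lower. Srm (0.11, 95% interval from -0.07 to 0.29) and Paox (-0.05, from -0.36 to 0.25) did not pass. These comparisons share the SVE libraries, so their likeness is no independent support. All 10 smooth muscle genes were lower here too, with summed levels of 15.82 to 16.07, and all 6 luminal epithelium genes higher (median 0.69). The 5 adipocyte genes tested were higher (median 2.21), as were 3 of 6 leukocyte genes tested, and 5 of 8 fibroblast and matrix genes were lower. Of 6 endothelium genes 1 was higher and 3 lower, of 5 basal epithelium genes 2 were higher and 3 lower, and of 8 proliferation genes tested 1 was higher and 2 lower. Their part was not tested.

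The construct group was also set against PE itself. There limma called 0 of the 7 genes and 0 of 13456, with 0.483% of all genes at an unadjusted p below 0.05. With array quality weights it called 850 of all genes and none of the 7. Smox differed by -0.0032, with a 95% interval from -0.25 to 0.24, and Sat1 by -0.0030, from -0.27 to 0.26. Sms differed by -0.016 (from -0.39 to 0.36), Azin1 by -0.015 (from -0.14 to 0.11) and Odc1 by 0.029 (from -0.11 to 0.17). The largest was Paox, at -0.29 (from -0.60 to 0.015). Differences inside these intervals were not detectable by this fit, which estimates the spread of each gene over all 5 groups. PE and mNKX3.1 could be less spread than that: for Sat1 their SDs were 0.05 and 0.03, against 0.31 in SVE. The 0 calls and the interval widths thus depend on this shared spread.

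For the hairpin alone, UTY_sh was set against SVE. Limma called 0 of 7 genes and 0 of all genes, with 2.35% at an unadjusted p below 0.05. Odc1 had its highest mean here, 8.87 ± 0.10 against 8.75 ± 0.04 in SVE (SD, n = 4), and 3 of 4 libraries were above all SVE libraries, but the difference of 0.12 had an interval from -0.02 to 0.26. Paox differed by 0.33 (from 0.024 to 0.64, adjusted p = 0.999). Smox differed by -0.13 (from -0.38 to 0.11), Sms by 0.028 (from -0.34 to 0.40), Sat1 by -0.0053 (from -0.27 to 0.26), Azin1 by 0.020 (from -0.11 to 0.15) and Srm by 0.0036 (from -0.18 to 0.18).

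For the hairpin beside the construct, mNKX3.1+UTY_sh was set against mNKX3.1. Smox was 3.20-fold higher (1.68, SE 0.12, adjusted p = 1.02e-09 by limma), Sms 2.61-fold lower (-1.39, SE 0.18) and Sat1 2.31-fold lower (-1.21, SE 0.13). Azin1 was lower by a log2 difference of -0.35 (SE 0.06) and Odc1 higher by 0.21 (SE 0.07). Srm was lower by -0.24 (SE 0.09, adjusted p = 0.0231), and Paox, at 0.22 (95% interval from -0.09 to 0.52), did not pass. Limma thus called 6 of 7 genes, 2 higher and 4 lower, against 63.8% of all genes, 31.4% higher and 32.4% lower. The Srm call was lost under quantile normalization (adjusted p = 0.0529) and without mNKX3.1 replicate 2 (0.0624), mNKX3.1 replicate 4 (0.0641) or mNKX3.1+UTY_sh replicate 2 (0.0571). Uty was lower too, by a log2 difference of -1.08 (SE 0.11, adjusted p = 1.37e-07 by limma). It averaged 9.15 ± 0.09 here, 10.23 ± 0.11 in mNKX3.1, 10.24 ± 0.14 in PE and 9.29 ± 0.21 in SVE. Without a hairpin in either group, Uty was also higher in PE than in SVE, by 0.95 (SE 0.11). The cause of the lower Uty was not tested. Cell type markers moved in this comparison as well. All 10 smooth muscle genes were higher (median 1.35, summed level 17.05 to 17.41 against 15.82 to 16.07), and 4 of 6 luminal epithelium genes were lower (summed level 14.85 to 15.01 against 15.75 to 15.99). The 5 adipocyte genes tested were lower (median -2.74), as were 3 of 6 leukocyte genes tested, while 4 of 8 fibroblast and matrix genes were higher. Of 5 basal epithelium genes 3 were higher and 2 lower, of 6 endothelium genes 2 were higher and 1 lower, and of 8 proliferation genes tested 3 were higher and 1 lower. Their part was not tested.

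Construct and hairpin together were also compared with neither. For this pair of groups, mNKX3.1+UTY_sh against SVE, limma called 0 of 7 genes and 0 of all genes, with 4.14% at an unadjusted p below 0.05. Smox differed by -0.08 (95% interval from -0.33 to 0.17), Sms by -0.026 (from -0.40 to 0.34), Sat1 by -0.08 (from -0.35 to 0.18), Azin1 by -0.039 (from -0.17 to 0.087), Odc1 by -0.06 (from -0.20 to 0.081), Srm by -0.12 (from -0.30 to 0.056) and Paox by 0.16 (from -0.15 to 0.47). The intervals of Smox, Sms and Sat1 do not reach the differences seen with the construct alone.

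Whether the hairpin's difference depended on the construct was tested as an interaction. Limma called 4 of 7 genes, 1 higher and 3 lower, against 48.1% of all genes, 24% higher and 24% lower. This interaction, the difference in the presence of the construct less the difference in its absence, was 1.81 for Smox (SE 0.17, adjusted p = 1.04e-07), -1.41 for Sms (SE 0.25), -1.20 for Sat1 (SE 0.18) and -0.37 for Azin1 (SE 0.09). For Odc1 it was 0.09 (95% interval from -0.11 to 0.29), for Srm -0.24 (from -0.49 to 0.016) and for Paox -0.12 (from -0.55 to 0.32).

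**Figure D4:**
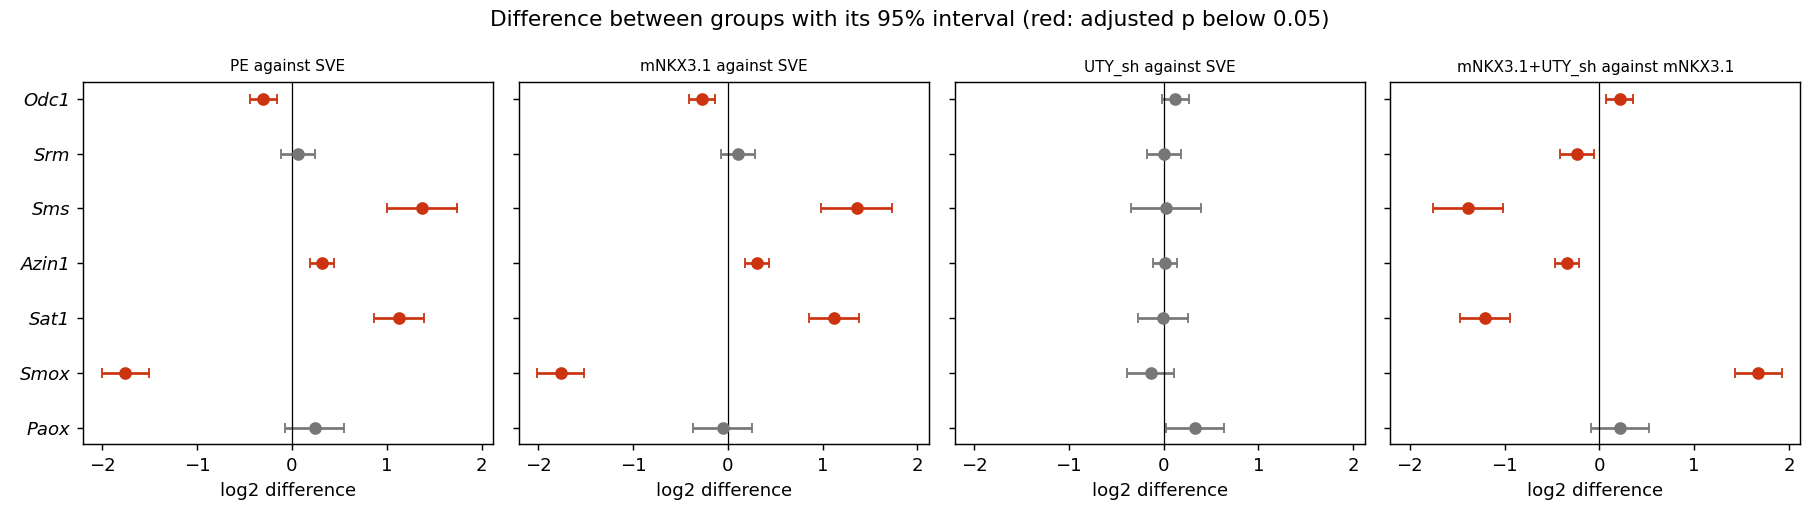
Log2 differences (x axis) of the 7 genes tested (y axis) in 4 comparisons, with 95% intervals from limma, in red where the adjusted p was below 0.05. Smox is near -1.76 in the PE and mNKX3.1 panels and 1.68 in the last panel, with Sms and Sat1 on the opposite side, and all 7 genes are grey for UTY_sh against SVE.

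In the order of group means, PE and mNKX3.1 were the highest groups for Sms, Sat1 and Azin1 and the lowest for Smox and Odc1. For each of these 5 genes the libraries of PE and mNKX3.1 overlapped each other. The SVE, UTY_sh and mNKX3.1+UTY_sh groups overlapped their neighbours in the order. Only the neighbouring groups where the 2 sets meet did not overlap. The share of all genes split in this way was not counted. Of all genes, 62.1% were called in PE and 62.3% in mNKX3.1, each against SVE, so the split is not read as particular to these genes. The means of those groups differed by 1.62 for Smox, 1.33 for Sms, 1.12 for Sat1, 0.29 for Azin1 and 0.21 for Odc1. For Odc1 the sets themselves overlapped: PE replicate 3, at 8.65, was above mNKX3.1+UTY_sh replicate 1, at 8.62. For Srm and Paox every neighbouring pair overlapped.

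Within the 3 seminal vesicle groups, Sat1 and Sms were highest in the library richest in Pbsn, in each group. SVE replicate 1 had Pbsn at 15.71, Sat1 at 9.58 and Sms at 7.70. UTY_sh replicate 3 had Pbsn at 14.81, Sat1 at 9.33 and Sms at 7.35. In mNKX3.1+UTY_sh replicate 4, Pbsn was at 15.06, Sat1 at 9.41 and Sms at 7.45. In the 9 other libraries of these groups Sat1 stayed between 8.88 and 9.14. Not all of those were poor in Pbsn. UTY_sh replicate 2 had Pbsn at 13.81, with Sat1 at 9.14 and Sms at 7.11. In mNKX3.1+UTY_sh replicate 3, Pbsn was at 12.56, Sat1 at 8.92 and Sms at 7.15. Smox showed no such order: the 3 libraries richest in Pbsn had it at 10.22, 10.10 and 10.14, within the range of the rest. Without these 3 libraries, left out after Pbsn was seen, limma called the same numbers of the 7 genes in every comparison. The cause was not tested.

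**Figure D5:**
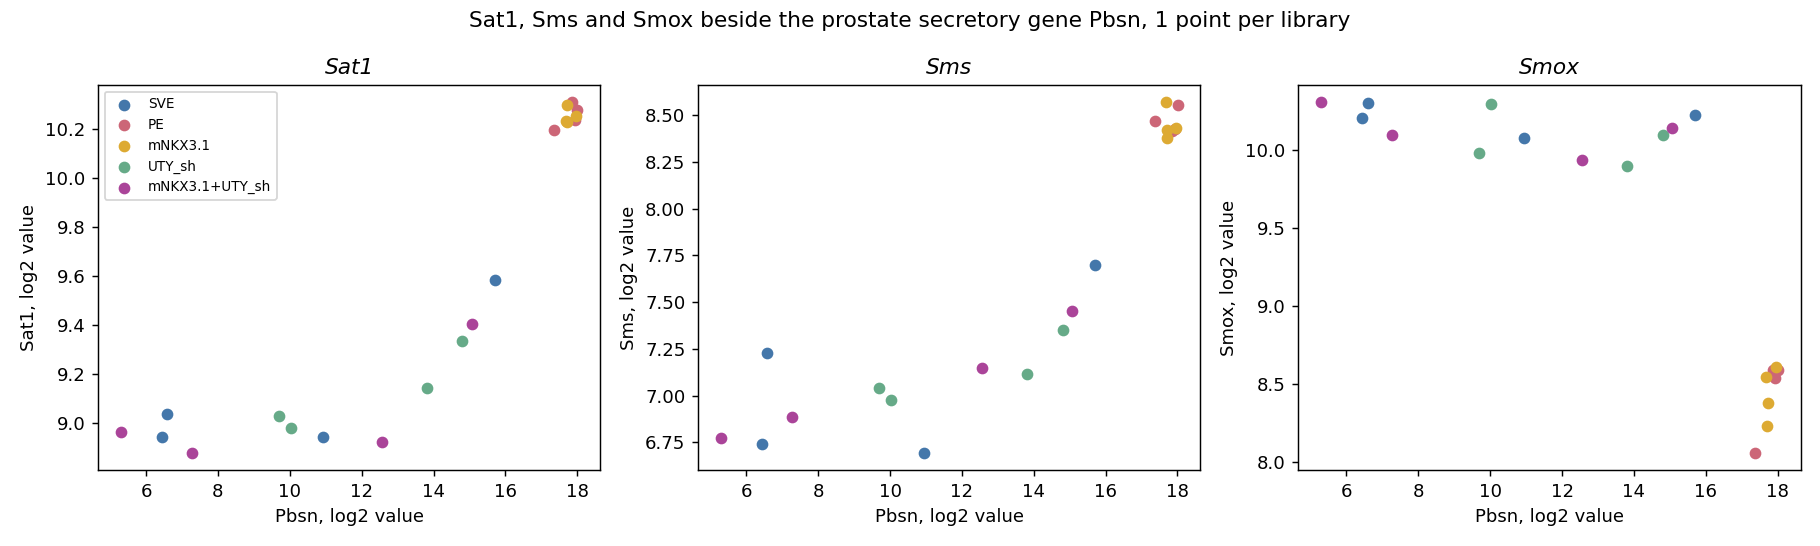
Log2 values of Sat1, Sms and Smox (y axes) against Pbsn (x axes), 1 point per library, coloured by group. Above a Pbsn of about 14 the seminal vesicle libraries reach up to 9.58 for Sat1 and 7.70 for Sms, towards PE and mNKX3.1, while Smox stays at 9.90 or higher in all 12 of them.

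Compared per kilobase of the longest coding transcript, on a log2 scale, Srm was the most abundant of the 7 genes in SVE, at 10.06, and Paox the least, at 3.29. Smox followed Srm at 9.0, ahead of Sat1 at 8.91 and Azin1 at 8.77. In PE, Srm (10.12) and Sat1 (10.04) led, and Smox, at 7.24, was level with Odc1 at 7.31. The order among Smox, Sat1 and Azin1 in SVE, of Srm and Sat1 in PE, and of Odc1, Smox and Sms in PE changed when the median transcript length was used. Srm as the highest in SVE and Paox as the lowest in both did not.

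Other genes of the pathway came from lists fixed by name. Their counts are read against 62.1% of all genes called in PE and 62.3% in mNKX3.1, each against SVE. Among genes of ornithine supply and use, 2 of 9 were higher and 3 lower in PE, and 3 and 3 in mNKX3.1, against SVE, or 5 and 6 of 9 called, near the background. Arg2, the mitochondrial arginase that makes ornithine, rose by 3.27 (SE 0.38) in PE and 3.24 in mNKX3.1. Oat, which turns ornithine to other uses, rose by 0.48 (SE 0.07) in PE, and Ass1, an arginine synthesis gene, fell by 1.18 (SE 0.15) in PE and 1.07 in mNKX3.1.

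Among methionine cycle and methylthioadenosine salvage genes, which supply and recycle the aminopropyl donor, 5 of 15 were higher and 5 lower in PE, and 5 and 6 in mNKX3.1, again near the background. Ahcyl2, an S-adenosylhomocysteine hydrolase-like gene, rose by 0.70 (SE 0.07) in PE. Enoph1, of the salvage pathway, rose by 0.87 (SE 0.12), and Mtap, which starts that pathway, fell by 0.63 (SE 0.11).

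Of 9 polyamine transport genes, 1 was higher and 4 lower in both comparisons with SVE. Gpc1, a heparan sulfate proteoglycan that takes part in polyamine uptake, fell by 1.33 (SE 0.09) in PE and 1.37 in mNKX3.1. Atp13a4, a P5B-type ATPase gene, fell by 4.26 (SE 0.38) in PE and 4.19 in mNKX3.1, and Slc12a8 fell by 1.05 (SE 0.17) in PE. In the hypusine pathway, which uses spermidine to modify eIF5A, 2 of 4 genes were higher in PE and 1 in mNKX3.1. Eif5a rose by 0.29 (SE 0.06) and Dhps by 0.18 (SE 0.07) in PE. Of the 2 other polyamine genes tested, Sat2, a relative of Sat1, fell by 0.64 (SE 0.15) in PE, and Adc, the older symbol of antizyme inhibitor 2, differed by 0.057 (SE 0.16). In the Myc network, whose target genes include Odc1, 3 of 8 were higher and 3 lower in PE, and 2 and 2 in mNKX3.1, so 6 and 4 of 8 were called against those 62.1% and 62.3%. Mycl1 rose by 3.54 (SE 0.47) in PE, Mxi1 fell by 0.46 (SE 0.06), and Myc itself fell by 0.22 (SE 0.07). Median differences in PE were -0.051, -0.011, -0.18, 0.13 and 0.13 for the ornithine, methionine, transport, hypusine and Myc lists, against 0.022 over all genes.

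Genes with the pattern most like that of 3 members were found by the root mean square difference of log2 values, each gene centred on its mean over the 20 libraries. For Smox, the member with the widest span of group means, these were Slc44a4 at 0.10, Gdpd5 at 0.14 and Nfatc4 at 0.15. For Sat1 they were Tmem123 at 0.081, Dusp12 at 0.088 and Wbp5 at 0.089. For Odc1 they were Akap11 at 0.083, Rufy1 at 0.083 and Pds5a at 0.085.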

How the data were processed

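Poly-A RNA of grafts was sequenced in 20 libraries, 4 in each of 5 groups, per the labels' protocols. TopHat2 2.0.4, Cufflinks 2.0.2, bcl2fastq 1.8.4, DESeq and the mm9 build appear in the submitters' processing notes, without roles. Which counter and annotation were used, and what became of rat reads, is not given in the sources used here. As deposited, the authors' table holds a log2 value per gene and library. Between log2 values of 11.2 and 11.8 the antilogs lay on steps of 1 read in 100% of values (within 0.1 of a read, with 1 offset per library), which gave the depth of about 14920000 to 29810000 reads. The steps were not checked at lower values, which are compressed towards the floor, and no count test was run.

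Genes with a log2 value of at least 5 in at least 4 libraries were tested (13456). limma 3.58.1 (R 4.3.3) fitted a linear model with group means to the 20 libraries, using a variance trend, empirical Bayes moderation and Benjamini-Hochberg adjustment over all genes within a comparison. It was tested on simulated data. The planned log2(value + 1) step was dropped because the values were already on a log scale. All members were named, up to 3 genes with the smallest p in PE against SVE were named from each pathway list, and 3 genes of most similar pattern for Odc1, Sat1 and the member with the widest span. Gapdh, Amd2, Pbsn and Sbpl were added after their values were seen. The members and lists were chosen with earlier results of these data known. Settings tried were other filters, scalings, samples, variance models and library weights, and leaving out each library.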

Additional observations from a re-analysis of the deposited data

Results flagged for a closer look

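Among 50 sets of 4 libraries (10 genes, the row Oaz2-ps included, in 5 groups), 8 held a library far from the other 3, and chance gives about 1 in 20. These were Sat1 in SVE replicate 1, at 9.58, and in mNKX3.1+UTY_sh replicate 4, at 9.41, both rich in Pbsn. Smox was low in PE replicate 3, at 8.06, Odc1 in mNKX3.1 replicate 4, at 8.36, and Paox in mNKX3.1+UTY_sh replicate 4, at 5.47. At the floor, Amd1 stood apart in UTY_sh replicate 3 (1.77) and mNKX3.1+UTY_sh replicate 2 (3.20), and Oaz1 in UTY_sh replicate 3 (1.69).

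The hairpin's difference with the construct and without it differed by limma's interaction test for 4 genes, by 1.81 for Smox, -1.41 for Sms, -1.20 for Sat1 and -0.37 for Azin1.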

How the results depend on the processing

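Over 28 other settings, every call among the 7 genes kept its direction, and only the Srm call in mNKX3.1+UTY_sh against mNKX3.1 was lost, in 4 settings given beside it. Not every setting held every gene: Paox failed the stricter filter. With array quality weights 3 results gained or changed a call: Paox in mNKX3.1+UTY_sh against mNKX3.1 (adjusted p = 0.0223), the Srm interaction (0.0487), and 850 of all genes in mNKX3.1 against PE, against 0 by the main fit. Without SVE replicate 2 the Srm interaction passed too (0.0325). Signs that turned all belong to differences that were not called. In mNKX3.1 against PE these were Azin1 (0.0048), Sat1 (0.0072) with quantile normalization, and Sat1 (0.0038) and Smox (0.0035) with library medians set equal. In UTY_sh against SVE they were Azin1 (-0.011), Sat1 (0.049) and Srm (-0.022) with array weights, Sms (-0.0015) with quantile normalization, Srm (-0.0020) with medians set equal, and Azin1 (-0.023) and Sat1 (0.076) without the 3 libraries rich in Pbsn. In mNKX3.1+UTY_sh against SVE it was Sms, at 0.082 with array weights and 0.047 without those libraries.

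Leaving out 1 library at a time, UTY_sh against SVE ranged from -0.026 to 0.077 for Azin1, -0.076 to 0.15 for Sat1, -0.10 to 0.23 for Sms and -0.054 to 0.076 for Srm. For mNKX3.1 against PE the ranges were -0.030 to 0.0019 for Azin1, -0.011 to 0.096 for Odc1, -0.023 to 0.015 for Sat1, -0.13 to 0.066 for Smox and -0.055 to 0.014 for Sms. They were -0.20 to 0.068 for Sat1 and -0.16 to 0.18 for Sms in mNKX3.1+UTY_sh against SVE, and -0.14 to 0.042 for Paox in mNKX3.1 against SVE. No paired analysis was possible because the labels give no replicate numbers. The replicate numbers used here follow only the order of the libraries within each group. Low values are compressed towards the floor, which bears on Paox, the lowest gene tested.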
